A study of Mus musculus with 11 samples.

Results

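Genes that mark tissue-resident macrophages were followed through the stromal vascular fraction of mouse perigonadal white adipose tissue (pgWAT): Lyve1, Cd163, Mrc1, Timd4, Folr2, Retnla, Cbr2, Fcna, Trem2 and Cd9. They were chosen by symbol, and each of these 10 genes had 1 row among the 23507 gene rows of the count table. Their detection and co-detection were measured in cells gated on transcripts of C1qa (a subunit of complement C1q) at 50 CPM or more and Csf1r (the receptor for macrophage colony-stimulating factor) at 20 CPM or more, where CPM is the counts of a gene scaled to a common total of gene reads per cell. This gate held 124 of 3261 cells. Background was measured in the remaining cells of the plates numbered 171 and 843, which held 63 and 58 of the gated cells. Plate 172 held the other 3 gated cells, and the remaining 8 plates held 0.

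Resident macrophages of fat take up dead cells, debris and macromolecules through endocytic receptors, and a part of them sits along blood vessels and carries LYVE1. TIMD4, FOLR2, CD163 and the mannose receptor MRC1 are surface proteins used to tell such long-lived cells from macrophages recently derived from monocytes, which carry CCR2. TREM2 and CD9 are best known in fat for the lipid-associated macrophages that gather around dying adipocytes in obesity.

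The cells came from adult male and female mice that carried the Tg(Pdgfrb-eGFP) reporter, in which GFP is made by cells with an active Pdgfrb promoter, on a C57BL6/J background, and no mouse was treated. The Smart-seq2 protocol reads whole transcripts and adds no molecular barcode, so the counts are of reads, and the intervals given cover counting error only. Before the other gates, the study removed cells positive for CD45, the leukocyte surface protein encoded by Ptprc, so the macrophages are cells that passed this sort and not a sample of the tissue's macrophages. Plate 171 held CD31-positive cells of mouse 1 (male), plate 172 PDGFRB-positive cells of the same mouse and plate 843 PDGFRB-positive cells of mouse 5 (female). The other plates held PDGFRB-positive or CD31-positive cells, in part sorted further by DPP4, of mice 4 and 8 (male) and of mice 2, 3 and 6/7 (female, the last label standing for a pair of animals). Gene reads per cell over the table ran from 141935 to 3526227 with a median of 616939.

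All gated cells thus came from 1 male (66 cells, 56679842 gene reads) and 1 female (58 cells, 33834103 gene reads). The sex, the animal, the plate and the sort of these cells cannot be told apart, and values of the 2 mice are given side by side without a test. The median gated cell had 892600 reads and 4800.5 genes in mouse 1 and 579918 reads and 5483 genes in mouse 5. At the edge of the gate, the lowest Csf1r levels inside were 23.97, 24.46 and 29.99 CPM and the nearest outside, in cells that passed on C1qa, were 18.0, 14.9 and 12.4 CPM. The lowest C1qa levels inside were 59.9, 67.3 and 69.9 CPM, against 45.4, 41.9 and 40.3 CPM in cells that passed on Csf1r only. Clustering of all cells placed 121 of the 124 gated cells in the macrophage-like cluster, 2 in EC-like (endothelial) and 1 in ASC-like (adipose stem cell) clusters.

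In GENCODE vM21 (GRCm38), whose names matched 23461 of the 23507 gene rows, Lyve1 lies at chr7:110850607-110863239 (minus strand), Folr2 at chr7:101839988-101857194 (minus), Cd163 at chr6:124304656-124330527 (plus) and Cd9 at chr6:125460266-125494791 (minus). Mrc1 lies at chr2:14229392-14332057 (plus), Fcna at chr2:25624666-25628030 (minus), Timd4 at chr11:46810800-46844332 (plus) and Cbr2 at chr11:120729489-120732114 (minus). Retnla lies at chr16:48842551-48844461 (plus) and Trem2 at chr17:48346401-48354147 (plus). Counts are of whole genes, over their exons.

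The gated cells carried the defining transcripts of macrophages. All 16 genes of a core macrophage list were detected, at 10 CPM or more, in at least 20% of gated cells of each mouse. Lyz2 (lysozyme) stood at 3455 CPM in mouse 1 and 6634 CPM in mouse 5, C1qb at 1777 and 3788 CPM, and C1qc at 1531 and 2535 CPM. Ptprc, whose protein the sort selected against, was detected in 72.7% and 86.2% of gated cells, at 131 and 148 CPM. Markers of the sorted-for classes were low: the summed level of 6 EC markers was 32.8 and 5.44 CPM, against 3378 CPM in EC-like cells of plate 171 and 5832 CPM in those of plate 843, and that of 6 ASC markers was 60.9 and 38.6 CPM, against 16065 CPM in ASC-like cells of plate 843. In all, 6 gated cells of mouse 1 and 7 of mouse 5 had at least 50 CPM of Cdh5, Cldn5, Pdgfra or Dcn.

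Endocytic and scavenger receptors made up 5 of the members. Mrc1, the mannose receptor, was the most widely detected: it reached 10 CPM in 93.9% of gated cells of mouse 1 (95% exact binomial interval 85.2 to 98.3) and in 100% of those of mouse 5 (93.8 to 100). Its CPM of summed counts was 612 in mouse 1 and 1004 in mouse 5, and single cells ran from 0 through a median of 544 to 1339 CPM in mouse 1 and from 24.5 through 1042 to 2233 CPM in mouse 5. The ranges of cells overlapped, and mouse 5 had the higher middle. Folr2, the folate receptor beta, was at 1074 and 1259 CPM and was detected in 92.4% (83.2 to 97.5) and 96.6% (88.1 to 99.6) of cells, with single-cell medians of 854 and 1174 CPM and highest cells of 2578 and 4164 CPM.

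Lyve1, a hyaluronan receptor shared with lymphatic endothelium, was detected in 84.8% (73.9 to 92.5) and 87.9% (76.7 to 95.01) of gated cells. Its summed level was 397 CPM in mouse 1 and 860.3 CPM in mouse 5. Single cells ran from 0 through a median of 242 to 1595 CPM in mouse 1, and from 0 through 605 to 3167 CPM in mouse 5. Cd163, the scavenger receptor for haptoglobin-bound haemoglobin, showed a similar spread at a lower level, with summed CPM of 176 and 363, medians of 91.9 and 311 CPM, and detection in 75.8% (63.6 to 85.5) and 86.2% (74.6 to 93.9) of cells. Timd4, a receptor for phosphatidylserine on dying cells, was read in fewer cells: 27 of 66 in mouse 1, 40.9% (29.0 to 53.7), and 28 of 58 in mouse 5, 48.3% (35.0 to 61.8). Its summed level was 47.8 and 56.4 CPM, the median cell held 0.948 and 5.39 CPM, and the highest cells held 289 and 310.02 CPM. In each mouse, Mrc1 and Folr2 were thus detected in most gated cells, though at varied levels, and Timd4 in a smaller part of them.

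Of the 2 secreted members, Retnla (RELM-alpha, a protein of the resistin family) had the higher and the less even reads. Its summed level was 5169.9 CPM in mouse 1 and 3409 CPM in mouse 5, whereas the median cell held 1947 and 267 CPM. The highest cells reached 35220.4 and 22873 CPM, 13 cells of mouse 1 and 8 of mouse 5 exceeded 10000 CPM, and the 10 highest cells held 61.0% and 79.1% of all Retnla reads. By comparison, the 10 highest cells for Mrc1 held 38.0% and 34.3% of its reads. Retnla was detected in 86.4% (75.7 to 93.6) and 77.6% (64.7 to 87.5) of gated cells. Fcna (ficolin A, a soluble lectin that recognises microbial sugars) stood at 1306 and 1946 CPM, with medians of 891 and 1250 CPM, highest cells of 6357 and 13253 CPM and detection in 89.4% (79.4 to 95.6) and 86.2% (74.6 to 93.9) of cells.

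Cbr2 (carbonyl reductase 2, an enzyme that reduces carbonyl compounds) had similar unscaled levels in the mice. It stood at 2055 and 1951 CPM with medians of 1737 and 1838 CPM, and was detected in 93.9% (85.2 to 98.3) and 96.6% (88.1 to 99.6) of cells.

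The remaining members, Trem2 and Cd9, had low levels in these cells. Trem2, a lipid receptor that signals through Tyrobp, was detected in 54.5% (41.8 to 66.9) and 55.2% (41.5 to 68.3) of gated cells at summed levels of 93.1 and 74.6 CPM, with medians of 17.2 and 27.5 CPM. Cd9, a tetraspanin found on many cell types, was detected in 5 of 66 and 4 of 58 cells, 7.58% (2.51 to 16.8) and 6.90% (1.91 to 16.7), at summed levels of 3.85 and 11.7 CPM. The 10 highest cells held 82.6% of its reads in mouse 1 and 96.7% in mouse 5. Cd9 was thus no marker of these gated cells, and it was higher in the cells outside the gate.

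**Figure D1:**
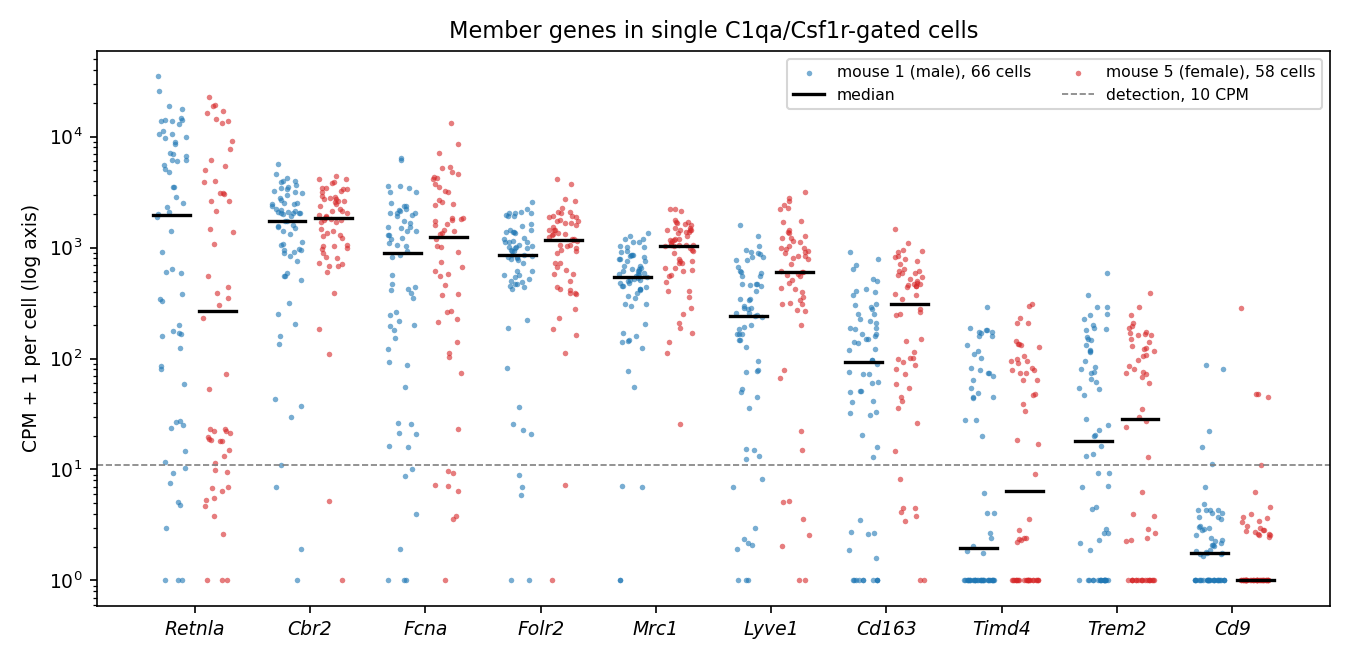
Level of each member in every gated cell, as CPM + 1 on a log axis, with mouse 1 in blue and mouse 5 in red; black bars are medians and the dashed line is the detection limit of 10 CPM. Retnla spans the whole axis in both mice, most cells lie in a narrower band for Cbr2, Folr2 and Mrc1, and most cells lie under the dashed line for Cd9.

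To put all members in an order, levels were taken per kilobase of exon, since the CPM given above take no account of gene length. In both mice the order from highest to lowest was Retnla, Cbr2, Fcna, Folr2, Lyve1, Mrc1, Cd163, Timd4, Trem2 and Cd9. Retnla stood at 8631 CPM per kilobase in mouse 1 and 5692 in mouse 5, Cbr2 at 1549 and 1470.3, Timd4 at 22.0 and 25.9, and Cd9 at 1.88 and 5.71. Between neighbours in this order the ranges over the 2 mice overlapped only for Lyve1 (136 and 295) and Mrc1 (96.0 and 158), and with 1 value per mouse no order was tested.

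Of 6842 genes with at least 10 CPM in the gated cells of either mouse, 1776 (26.0%) differed more than 2.6-fold between the 2 mice in summed level, with 1341 higher in mouse 5 (19.6%) and 435 higher in mouse 1 (6.36%). Of the 10 members, 1 did: Cd9, 3.04-fold higher in mouse 5, which entered this count only through mouse 5 and rests on 4 cells with 10 CPM or more. The median gene had a log2 ratio of mouse 1 to mouse 5 of -0.56, so ratios of members were read against it. Relative to this median, Retnla was higher in mouse 1 by 1.16 on the log2 scale, Trem2 by 0.88 and Cbr2 by 0.64, while Lyve1 stood at -0.55 and Cd163 at -0.48. For Retnla the unscaled log2 ratio was 0.60, and its means over cells, 5035 and 3455 CPM, were close to its summed levels. The ratio of its single-cell medians was larger, so the value depends on whether means or medians are compared.

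Most gated cells held most members. The median number of the 10 members at 10 CPM or more was 8 in both mice, and 1 cell, of mouse 5, held all 10. All 7 of Lyve1, Cd163, Mrc1, Folr2, Retnla, Cbr2 and Fcna were detected together in 41 of 66 cells of mouse 1 and 38 of 58 cells of mouse 5, whereas the product of their shares gives 26.7 and 27.4 cells. At least 5 of these 7 were detected in 60 and 52 cells. At the other end, 4 cells of mouse 1, of which 2 came from plate 172, and 2 cells of mouse 5 had 2 or fewer of the 7. Of these 6 cells, 5 held 2333 to 7468 CPM of H2-Aa, a class II antigen presentation gene, and the other held 96.2 CPM. None of the 6 had a Timd4 read, 1 of them held 22873 CPM of Retnla, the highest of mouse 5, and 2 were among the cells with endothelial or stem cell transcripts.

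**Figure D2:**
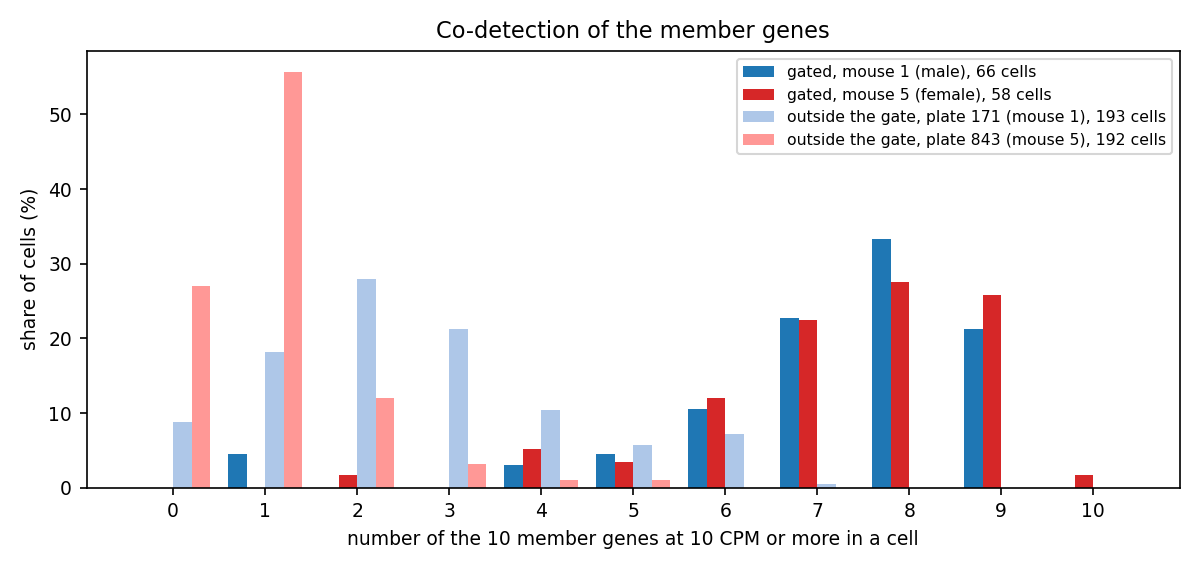
Share of cells, in percent, by the number of the 10 members at 10 CPM or more, for gated cells of mouse 1 (dark blue) and mouse 5 (dark red) and for cells outside the gate and the macrophage-like cluster on plates 171 (light blue) and 843 (light red). Gated cells of both mice centre on 8 members, cells outside the gate on 2 (plate 171) and 1 (plate 843).

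Pairs of members were detected together more often than the product of their shares within each mouse in both mice for 21 of 45 pairs, and less often in both for 7. Every gated cell of mouse 5 held Mrc1, so pairs with Mrc1 equal the product there and could enter neither count. Lyve1 and Fcna had the largest excess, with 104 cells holding both against 94.0 from the product. All 27 Timd4-positive cells of mouse 1 and all 28 of mouse 5 also held Lyve1, where the product gives 22.9 and 24.6. Lyve1 and Cd9 had the largest deficit, with 4 cells against 7.76. Because cells share their plate, animal and depth, these counts are given as descriptions.

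Levels across the 124 gated cells, as log2(CPM + 1) centred within each mouse, ordered the pairs in another way than detection did. Folr2 and Cbr2 had the highest Pearson r of any pair of members, 0.88, followed by Lyve1 and Fcna with 0.77 and Folr2 and Fcna with 0.74. The median over the 45 pairs was 0.30, and the lowest r was -0.30, between Cbr2 and Cd9. Trem2 had no r above 0.19 with another member. Among 4327 genes detected in at least 20% of gated cells, the 3 genes most like Lyve1 were Fcna, Folr2 and Cbr2 (r = 0.66), all members. For Folr2 they were Cbr2, F13a1 (coagulation factor XIII, 0.79) and Fcna. For Cbr2 they were Folr2, F13a1 (0.74) and Selenop (0.73), and for Fcna they were Lyve1, Ltc4s (0.74) and Folr2. Cd163 was nearest to Lyve1 (0.52), Mrc1 (0.52) and F13a1 (0.52), and Mrc1 to F13a1 (0.67), C1qa (0.67) and C1qc (0.65). Retnla was nearest to the lectin gene Cd209d (0.55) and the chemokine genes Ccl6 (0.54) and Ccl24 (0.52), none of them members. Timd4 had an r of 0.41 with Cd209f and of 0.39 with Lyve1. Trem2 was nearest to Dok3 (0.41), Tmed5 (0.37) and Setd3 (0.36), and Cd9, itself under the 20% limit, to Bcl2a1b (0.34), Snx12 (0.33) and Tap1 (0.33).

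**Figure D3:**
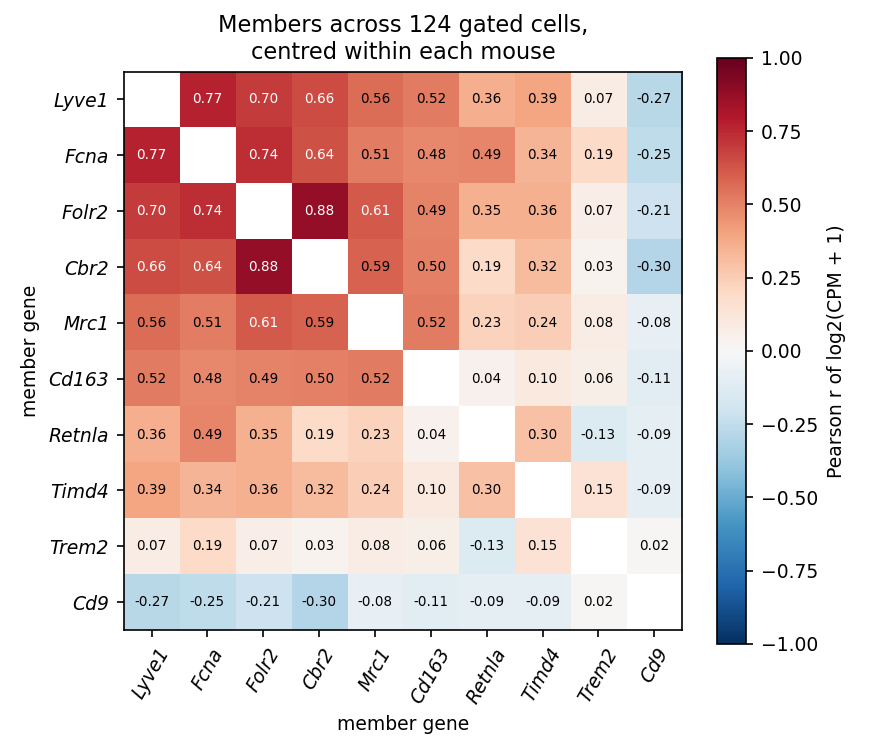
Pearson r between members over the 124 gated cells, from log2(CPM + 1) centred within each mouse; red is positive, blue negative, and the diagonal is left blank. Lyve1, Fcna, Folr2, Cbr2, Mrc1 and Cd163 form a block of values of 0.48 or more, and the rows of Trem2 and Cd9 hold values of 0.19 or less.

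Cells with and without a member differed in other genes, and the values are given as levels of summed counts without a test. The 10 cells of mouse 1 and 7 of mouse 5 without Lyve1 held 223 and 4.99 CPM of Fcna, against 1463 and 2252 CPM in cells with Lyve1. Their Folr2 was 312 and 306 CPM, against 1185 and 1409 CPM, and their Timd4 was 0 and 0.651 CPM, against 54.7 and 65.1 CPM. In contrast, their H2-Aa was higher, 2285 and 5409 CPM against 1250.1 and 1974 CPM, as was the summed level of Cx3cr1 (the fractalkine receptor), 112 and 1076 CPM against 34.2 and 34.6 CPM. In mouse 1 this level came from 1 of the 10 Lyve1-negative cells, and in mouse 5 Cx3cr1 was detected in 4 of the 7. Ccr2, the chemokine receptor of monocytes, stood at 620.1 CPM in Lyve1-negative cells of mouse 5 against 23.8 CPM in Lyve1-positive ones, and at 8.37 against 10.54 CPM in mouse 1. The median depth of Lyve1-negative cells was below that of Lyve1-positive cells in mouse 1 (618347 against 927342 reads) and above it in mouse 5 (661413 against 576022).

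Timd4-positive cells held more Retnla than Timd4-negative cells, 7651 against 3083 CPM in mouse 1 and 4448 against 2429 CPM in mouse 5, and more Folr2, 1326 against 863 and 1626 against 912 CPM. Their H2-Aa was lower, 1116 against 1604 and 1467 against 3362 CPM, as was their Cx3cr1, 9.54 against 73.0 and 17.4 against 327 CPM. Trem2-positive cells held more Fcna by summed level than Trem2-negative cells in both mice, 1595 against 803 and 2509 against 1242 CPM. Fcna was not detected in a larger share of them, with 88.9% against 90% in mouse 1 and 84.4% against 88.5% in mouse 5. Cx3cr1 was also higher in Trem2-positive cells, 68.9 against 0.677 and 288 against 36.8 CPM. In mouse 1 these Cx3cr1 levels rest on 4 cells in all. In that mouse the Timd4-positive and Trem2-positive cells were also the deeper ones, with median reads of 1025365 against 734515 and 1051078 against 653400, and the part of depth in these differences was not tested. In mouse 5 the medians were 575962 against 593154 and 624725 against 561386.

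Other genes of resident macrophages were read widely in the gated cells. Of 18 genes in the table from a tissue-resident and scavenger list, 17 were detected in at least 20% of gated cells of each mouse, and 3 of the 18 differed more than 2.6-fold between the mice. Selenop (selenoprotein P) stood at 3678 and 6131 CPM, Stab1 (the scavenger receptor stabilin-1) at 2473 and 885 CPM, F13a1 at 778 and 1566 CPM, Cd209f at 674 and 937 CPM and Pf4 at 575 and 704 CPM. Vsig4, a complement receptor, was the exception, detected in 9.09% and 5.17% of cells. On plate 843, Axl and Colec12 were higher outside the gate, at 366 and 83.2 CPM against 71.7 and 54.3 CPM in gated cells of mouse 5. The other genes of this list were lower outside the gate on both plates. Selenop still stood at 482 and 589 CPM there on plates 171 and 843, and Stab1 at 393 and 23.8 CPM. Of 8 antigen presentation genes, 7 passed the same limit, led by Cd74 (the class II invariant chain) at 3753 and 4576 CPM. Of 9 monocyte genes in the table, 1 passed, S100a4. Ly6c2 stood at 0.212 and 0.118 CPM, while Ccr2 stood at 10.3 and 105 CPM and Cx3cr1 at 44.0 and 176 CPM, each more than 2.6-fold higher in mouse 5 and detected in at most 17.2% of cells.

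Around Trem2 and Cd9, 12 of 17 genes of a lipid-associated list passed the limit. They included Apoe (apolipoprotein E, 5658 and 6988 CPM), Ctsb (cathepsin B, 1634 and 3222 CPM), Plin2 (a lipid droplet protein, 197 and 303 CPM), Lgals3 (galectin-3, 161 and 108 CPM) and Lpl (lipoprotein lipase, 110.5 and 125 CPM, in 50% and 67.2% of cells). Cd36 (1937 and 734 CPM), Fabp4 (92.5 and 33.7 CPM) and Ctsl (cathepsin L, 140 and 301 CPM) also passed. These genes and Lpl were higher outside the gate on both plates. On plates 171 and 843, Cd36 stood there at 5644 and 1823 CPM and Fabp4 at 4327 and 2077 CPM. Lpl stood at 179 and 649 CPM and Ctsl at 149 and 562 CPM. Cd63 was higher outside on plate 843 only, at 317 CPM against 227 CPM in gated cells of mouse 5. Spp1 (osteopontin) stood at 0.212 and 14.98 CPM, Gpnmb at 47.7 and 0.266 CPM, and Itgax, which encodes CD11c, had 1 read in mouse 1 and 0 in mouse 5. Gpnmb reads of mouse 1 lay in 3.03% of its cells.

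The regulatory sequence next to the members could be read for 9 of the 10 genes in RefSeq (GRCm38.p6), as the 250 bases before the gene's start. Transcripts of Maf, which encodes a transcription factor of macrophages that binds the Maf recognition element, stood at 51.5 CPM in mouse 1 and 147 CPM in mouse 5 in the gated cells. The letters TGCTGAC, an arm of that element, were found on either strand before Timd4, Retnla and Fcna and before 3.81% of 32851 promoters. These 3 promoters are shown because Timd4 was detected in only part of the gated cells, Retnla had the cells with the most reads and Fcna followed Lyve1 most closely. Each is printed 5′ to 3′ on the gene's strand with the matching letters in capitals (GTCAGCA is the same site on the other strand). GENCODE starts Fcna and Retnla before RefSeq does. The Fcna stretch was shortened to end before the GENCODE start, whereas the 30 bases shown for Retnla, with the matching letters, run past that start and so lie in the gene as GENCODE draws it.
Timd4, chr11:46810549-46810798, plus strand, match 45 bases before the start: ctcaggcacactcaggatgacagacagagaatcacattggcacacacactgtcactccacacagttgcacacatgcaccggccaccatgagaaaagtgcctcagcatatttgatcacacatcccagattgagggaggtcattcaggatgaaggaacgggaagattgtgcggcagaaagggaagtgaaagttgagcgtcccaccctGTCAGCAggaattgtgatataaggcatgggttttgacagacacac
Retnla, chr16:48842550-48842579, plus strand, match 48 bases before the RefSeq start: agggtacctagGTCAGCAatcccatggcgt
Fcna, chr2:25628031-25628224, minus strand, match 107 bases before the RefSeq start: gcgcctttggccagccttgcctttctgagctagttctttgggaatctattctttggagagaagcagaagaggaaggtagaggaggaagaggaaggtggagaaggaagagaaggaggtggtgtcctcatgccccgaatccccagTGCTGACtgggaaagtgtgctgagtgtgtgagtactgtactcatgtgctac
The letters GAGGAA, part of the site of the myeloid factor PU.1 (encoded by Spi1), were found before 5 members (Cbr2, Fcna, Mrc1, Retnla and Trem2) and 23.3% of promoters, and GGAAGT before 5 (Fcna, Folr2, Mrc1, Retnla and Timd4) and 19.7%. The joined GAGGAAGT, which holds both, was found before Retnla and 2.44% of promoters, and TGACTCA, the AP-1 site, before Folr2 and 4.46%. For Folr2 it lay only in a further promoter entry, chr7:101845332-101845581, which is inside the gene as GENCODE draws it. A match of letters is a description and shows no binding, and these motifs were picked after several had been counted.

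Outside the gate, 8 members had a higher level on plate 171 than on plate 843, and Trem2 and Cd9 had a lower one. Among the 193 cells of plate 171 that were neither gated nor in the macrophage-like cluster, Retnla stood at 33.6 CPM, was at 10 CPM or more in 81.9% of cells, and reached at most 421 CPM. On plate 843, with 192 such cells, it stood at 4.09 CPM and was detected in 15.1%. Cbr2 stood at 23.7 and 3.05 CPM, Fcna at 7.09 and 2.11 CPM, Folr2 at 6.12 and 2.40 CPM, Cd163 at 1.33 and 0.404 CPM, and Timd4 at 0.298 and 0.0564 CPM. C1qa, used for the gate, was at 13.2 and 3.52 CPM. Lyve1 and Mrc1, also read in lymphatic EC-like cells, stood at 134 and 18.9 CPM and at 11.3 and 1.18 CPM. In the other direction, Trem2 stood at 0.568 and 18.1 CPM and Cd9 at 60.8 and 140.4 CPM.

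In EC-like cells of plate 171 (172 cells), 9 of the 10 members stood at 0.570% to 1.30% of their gated level on the same plate, and C1qa at 0.713%. Cbr2 had the largest share, and 1 EC-like cell with 4845 CPM held part of it, since the median cell had 12.7 CPM. In EC-like cells of plate 843 (46 cells), 8 members stood at 0.0393% to 0.1003% of their gated level, C1qa at 0.0723% and Trem2 at 1.53%. In the 36 unnamed cells of plate 843 the shares were higher than in its EC-like cells, from 0.342% for Fcna to 1.06% for Folr2 over the 9 members other than Cd9, and C1qa stood at 0.402%. The highest of these shares, for Folr2 and Cbr2 (0.842%), included cells of 493.4 and 354 CPM. Detected shares outside the gate, such as 62.2% of EC-like cells with Cbr2 on plate 171, are given as values only. Where these reads came from was not tested.

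**Figure D4:**
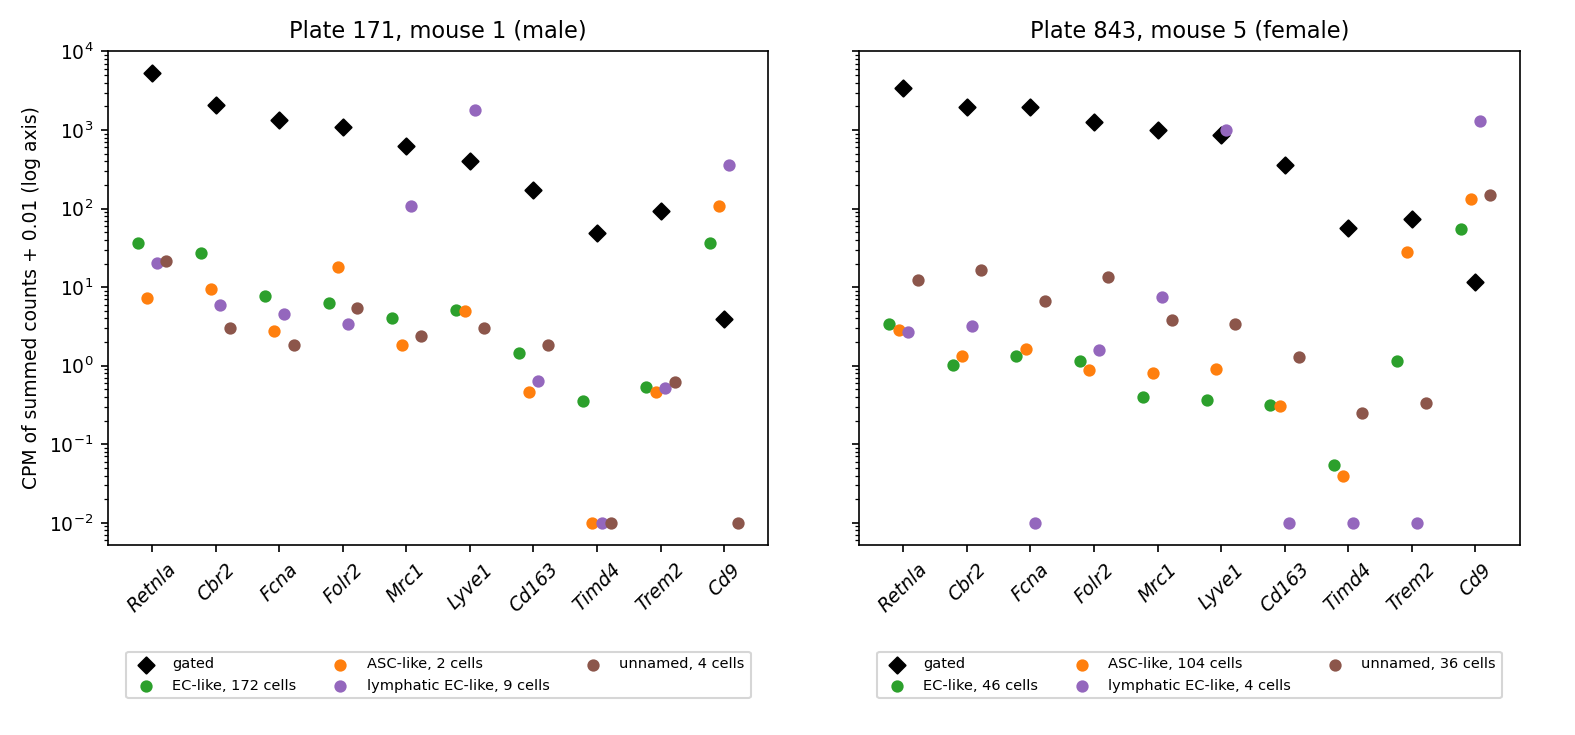
CPM of summed counts, plus 0.01, of each member on a log axis on plate 171 (left) and plate 843 (right), for gated cells (black diamonds) and for EC-like, ASC-like, lymphatic EC-like and unnamed cells outside the gate (coloured points). Gated cells stand above the other classes for 8 members on both plates, Lyve1 is higher in lymphatic EC-like cells, and Cd9 is lower in gated cells than in EC-like and ASC-like cells.

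The 8 plates without gated cells held 2396 cells, all from animals other than mice 1 and 5. Timd4 had 3 reads there in all, Fcna 12 and Folr2 64, and the highest plate stood at 0.0105, 0.0664 and 0.257 CPM. Retnla and Cbr2 reached 2.27 and 4.69 CPM on their highest plates. Cd9 ran from 34.5 to 229 CPM over these plates.

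Lyve1, named for the endothelium of lymphatic vessels, was also read at high levels in lymphatic EC-like cells. It stood at 1813 CPM in 9 such cells of plate 171, detected in 9 of 9, and at 1837 CPM in 6 cells of mouse 8, detected in 6 of 6. In mouse 5 it stood at 1006 CPM in 4 cells and in mouse 6/7 at 5651 CPM in 3 cells, with 1 cell detected in each. In those of plates 171 and 843 Timd4 had 0 reads, Cd163 stood at 0.630 and 0 CPM and Folr2 at 3.40 and 1.59 CPM. Mrc1 was read in some of them, at 108 CPM on plate 171, in 3 of 9 cells, and at 93.8 CPM in mouse 6/7, in 1 of 3 cells. In mouse 5 Mrc1 stood at 7.42 CPM, and in mouse 8 it had 0 reads. Cd9 was at 360 to 1301 CPM in lymphatic EC-like cells of the 4 mice. No mouse held 10 lymphatic EC-like cells, so none of these levels was tested.

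Trem2 was also read in ASC-like cells of plate 843. In these 104 cells it had 1894 reads and stood at 27.8 CPM, 37.3% of the gated level. The 7 cells at 10 CPM or more held 20.03, 22.2, 23.1, 28.6, 102, 891 and 1609 CPM, or 420.4 CPM over their summed counts, against 0.189 CPM in the other 97. These 7 cells had 1.12 CPM of C1qa, 0.447 CPM of Tyrobp and 0.223 CPM of Ptprc, against 3093, 393 and 148 CPM in gated cells of the same plate, whereas ASC marker transcripts were read in them. Dcn stood at 13410.2 CPM against 8199.9 CPM in the other 97 ASC-like cells, and the other 5 markers were lower than there, such as Pdgfra at 66.1 against 147 CPM and Dpt at 355 against 837 CPM, with Pdgfra at 0 in 3 of the 7 cells. All 7 lay in the same cluster of ASC-like cells, among its 49 cells of this plate. C1qb, Csf1r and Lyz2 stood at 4.47, 2.68 and 3.13 CPM in the 7 cells.

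The macrophage-like cluster held 16 further cells outside the gate, and most members were lower in them. Lyve1 was detected in 1 of the 16, Timd4 had 1 read, Cd163 stood at 7.87 CPM, Cbr2 at 9.81 CPM and Fcna at 7.05 CPM. Mrc1 was detected in 7 cells and stood at 125 CPM, Folr2 in 4 at 77.1 CPM, Retnla in 13 at 90.3 CPM and Trem2 in 2 at 47.2 CPM. The median cell held 4.97, 3.23, 38.7 and 0 CPM of these genes, and the highest cell 1453, 1292, 1382 and 413 CPM. Retnla was detected in all 12 of these cells on plate 171, where 81.9% of cells outside the gate and this cluster also detected it. Cd9 stood at 22.3 CPM, above both gated sums, with a median cell of 0.635 CPM and a highest cell of 221 CPM. H2-Aa stood at 2403 CPM with a median cell of 757 CPM. Ccr2 (230.3 CPM, median cell 13.6) and Cd209a (332 CPM, median cell 0.866) rested on few cells, the highest holding 2332 and 4328 CPM. The 3 gated cells of plate 172 also differed from those of plate 171: Retnla and Timd4 had 0 reads, and Lyve1 stood at 13.4 CPM against 406 CPM, with Trem2 at 83.7 CPM against 93.4 CPM.

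To compare gated cells with the sorted-for classes over animals, counts were summed per mouse and class, and mice with at least 10 cells of a class entered: 2 sums of gated cells, 5 of EC-like and 7 of ASC-like cells. The quasi-likelihood F test of edgeR, with mouse as a block, called a gene at an adjusted p below 0.05 and a fold above 2.6. In gated against EC-like cells 1888 of 23206 genes were called (8.14%), 922 of them higher in gated cells (3.97%) and 966 lower (4.16%). Of the 10 members, 8 were called higher, 1 lower and 1 was not called. The members had been chosen as macrophage genes, so this count is a description of the list and no independent evidence.

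The called members were far apart in level. Cd163 stood at 176 and 363 CPM in the gated sums and at 1.42, 0.0655, 0.307, 0.0395 and 0.271 CPM in EC-like cells of mice 1, 2, 5, 6/7 and 8. Its groups did not overlap, and the fitted log2 fold change was 8.42 ± 1.02 (edgeR adjusted p = 0.00237). Values after ± are approximate SEs, taken as the log2 fold change divided by the square root of the F statistic. Retnla stood at 36.0, 0.786, 3.42, 3.67 and 0 CPM in the same EC-like sums, with a log2 fold change of 8.01 ± 1.35 (edgeR adjusted p = 0.0117). For Lyve1 the EC-like values were 5.06, 0, 0.351, 0.138 and 0.135 CPM and the log2 fold change was 9.34 ± 1.61 (edgeR adjusted p = 0.00981). The EC-like sum of mouse 1, which came mostly from the plate with the most gated cells, was the highest for each of these 3 genes. Mrc1, Folr2, Fcna and Cbr2 had log2 fold changes of 7.28 to 9.28 (edgeR adjusted p from 0.0124 for Folr2 to 0.0365 for Cbr2). Timd4 had 32, 0, 1, 0 and 0 reads in the EC-like sums, and no fold is given. Trem2 stood at 0.521, 0.590, 1.14, 0.592 and 0.677 CPM in EC-like cells, and its log2 fold change of 6.24 ± 2.39 did not pass (edgeR adjusted p = 0.173), although the groups did not overlap.

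Cd9 went the other way. It stood at 3.85 and 11.7 CPM in the gated sums and at 36.0, 37.6, 55.2, 76.1 and 33.4 CPM in the EC-like sums, without overlap, and fell by 2.53 ± 0.43 on the log2 scale (edgeR adjusted p = 0.00921). Without mouse 5, whose gated cells make up 1 of the 2 sums, all 9 called members missed the threshold (edgeR adjusted p from 0.0552 for Mrc1 and Fcna to 0.218 for Timd4) with directions kept. Without mouse 1, Cbr2 (0.174), Fcna (0.0671) and Cd9 (0.121) missed it by the same test, without mouse 2 Timd4 (0.0557) and Cbr2 (0.0783), and without mouse 6/7 Cbr2 (0.0713) and Fcna (0.0607). With mice 1 and 5 alone, Lyve1 (0.0523), Mrc1 (0.0937), Retnla (0.0870), Cbr2 (0.128) and Fcna (0.101) missed it, and with plates 171 and 843 alone Lyve1 (0.0814), Mrc1 (0.0527), Cbr2 (0.0745) and Cd9 (0.104) did.

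Against ASC-like cells, 2036 of 23206 genes were called (8.77%), 765 higher (3.30%) and 1271 lower (5.48%), in the same fit and against the same gated sums. The members fell out the same way, with 8 called higher, Cd9 lower and Trem2 not called. Log2 fold changes of Lyve1, Cd163, Mrc1, Folr2, Retnla, Cbr2 and Fcna ran from 8.66 (Lyve1, edgeR adjusted p = 0.0241) to 11.34 (Fcna, edgeR adjusted p = 0.00594). Timd4 had 3 reads over all 7 ASC-like sums, 1 in mouse 2 and 2 in mouse 5, against 2708 and 1907 in the gated sums. Its call is therefore no test here either, and no fold is given. Cd9 stood at 70.3, 189, 142, 151, 134, 211 and 66.01 CPM in ASC-like cells of mice 1, 2, 3, 4, 5, 6/7 and 8, above both gated sums, and fell by 4.15 ± 0.47 on the log2 scale (edgeR adjusted p = 0.00151). Trem2 had a log2 fold change of 6.0 ± 2.14 (edgeR adjusted p = 0.129), with 27.8 CPM in ASC-like cells of mouse 5 against 0.0508 to 1.64 CPM in the other 6 sums. Without mouse 5, Lyve1 (0.242), Timd4 (0.196), Folr2 (0.302), Retnla (0.0520) and Cbr2 (0.0724) missed the threshold of the same edgeR test. Without mouse 1, Folr2 (0.0978) and Cbr2 (0.0844) missed it, and without mouse 6/7 Lyve1 (0.0588). With mice 1 and 5 alone Mrc1 (0.0555), Cbr2 (0.0616) and Fcna (0.0611) missed it, and with classes from markers Folr2 (0.0537). Trem2 was called against ASC-like cells by DESeq2 (adjusted p = 0.00072) and by the likelihood ratio test of edgeR (0.00916).

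Sex, the comparison of the study, could be tested for the members only where several mice of each sex had cells, that is in ASC-like and EC-like cells, where most members were at background. In ASC-like cells of 3 male and 4 female ids edgeR called 171 of 22407 genes (0.763%), 114 higher in males (0.509%) and 57 lower (0.254%), and 0 of the 8 members tested. With library totals alone, 45 of 144 called genes were higher in males, and the median log2 difference of all genes was -0.62 in place of 0.04. No member was called there by DESeq2 or by the likelihood ratio test either. Cd9, the only member with substantial reads there, stood at 70.3, 151 and 66.01 CPM in males and at 189, 142, 134 and 211 CPM in females. These groups overlapped, and the log2 difference of male minus female was -0.21 ± 0.24 (edgeR adjusted p = 0.743). Trem2 had the lowest unadjusted p of the members, 0.0295, with a log2 difference of -5.66 ± 2.20 (edgeR adjusted p = 0.294) set by the female value of 27.8 CPM in mouse 5. In EC-like cells the edgeR quasi-likelihood test called none of 18421 genes (0%). Without adjustment 1141 had p below 0.05, DESeq2 called 306 and the likelihood ratio test of edgeR 101. None of the 8 members tested there was called by edgeR or under any alternative. Cbr2 had the lowest unadjusted p among them, 0.0173, at 26.8 and 5.82 CPM in males and 5.83, 1.01 and 2.39 CPM in females, which overlapped.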

How the data were processed

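Per the study's methods, the authors aligned Smart-seq2 reads to mm10 with STAR, quantified them with Salmon and summarised them with tximport, and filtered cells. The deposited values are counts of reads per gene and cell, whole numbers. Tool versions are not given in the sources used here.

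Cells were clustered with Seurat 5.3.0 (3000 variable genes, 14 components, resolution 1.1) into 18 clusters, on all genes including the members, and named from marker lists. Clusters stayed unnamed with fewer than 3 markers detected, 3 or more adipocyte genes among 10 leading genes, or high mitochondrial reads. The adipocyte genes Cdo1, Scd1, Adrb3, Pcx and Dgat2 were added to this rule after the clusters were seen. An unnamed cluster of 122 cells was best matched by EC markers, and of its leading genes only Cfd was on the earlier adipocyte list. Doublets were not called; mixed cells were left out as an alternative. Counts were summed per mouse and class and tested with edgeR 4.0.16 (quasi-likelihood F test, Benjamini-Hochberg adjustment, mouse as a block where gated cells were compared). Calls needed a fold above 2.6 with the adjusted p under 0.05. The fits were also run on simulated sums with a fixed spread and no mouse effect, which cannot show how they behave on these paired sums. Detection means 10 CPM or more, spike-ins left out, and intervals are exact. The members and lists were chosen with earlier results of these data known. The members were named by the rule itself, and the genes nearest to each by Pearson r; some items are not reported here. DESeq2 1.42.0 was an alternative. Promoters came from RefSeq.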

Additional observations from a re-analysis of the deposited data

Results flagged for a closer look

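In ASC-like cells of the 4 female ids, 4 members had 1 value far from the others by Dixon's criterion (gap over range above 0.829), each time in mouse 5. Mrc1 stood at 0.793 CPM against 0.0622 CPM in the next id, Timd4 at 0.0294 against 0.00168 CPM, Fcna at 1.61 against 0.01003 CPM and Trem2 at 27.8 against 1.64 CPM. Of 10 groups examined, 4 passed. Chance flags about 1 in 20 groups of independent, normal values, but these groups share the same 4 sums, hold values near 0 and deviate in the same mouse, so the 4 cannot be read against that rate. The ASC-like cells of mouse 5 shared plate 843 with its 58 gated cells, and the part of this in the values was not tested. Timd4 there rests on 2 reads, and Trem2 on 7 cells that had 1.12 CPM of C1qa.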

How the results depend on the processing

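Gated cells came from 2 mice, so calls against other classes rest on 2 gated sums, and Smart-seq2 reads give no molecule counts. With detection at 1 read the median gated cell held 9 members in mouse 1 and 9 in mouse 5, and cells outside the gate 7 (plate 171) and 4 (plate 843). At 50 CPM it was 7 and 7, with the looser gate or the macrophage-like cluster 7 in mouse 1, and with thinning to 100000 reads and detection at 1 read together 4 outside the gate on plate 171. The cause was not tested.

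Against EC-like cells, DESeq2 called 4184 genes, the likelihood ratio test 3697, mice 1 and 5 alone 759 and plates 171 and 843 alone 355 (an alternative chosen after seeing the data), and leaving out each mouse gave 340 (without mouse 5) to 1989, with 621 without mouse 1. Against ASC-like cells these were 4874, 4468 and 981 for the first 3, and 439 (without mouse 5) to 2138, with 612 without mouse 1. Pairing came from the animal, since sums of 1 mouse share that mouse. Without the mouse block 3024 genes were called against EC-like and 3959 against ASC-like cells, of which 54.4% and 48.3% were higher. By sex in ASC-like cells, DESeq2 called 945, the likelihood ratio test 893, the filter of over 600 reads 266, and leaving out each mouse 51 to 170. By sex in EC-like cells, DESeq2 called 306, the likelihood ratio test 101, the 600-read filter 4, and leaving out each mouse 0.

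Of member fold changes under alternatives, 574 kept side and direction, 39 lost the call, 6 gained it and 10 turned sign, all 10 by sex and uncalled. In ASC-like cells these were Lyve1 at -0.47 with library totals and -0.16 (without mouse 1) to 1.00 over the mice left out, and Folr2 at -9.19 to 0.56 (without mouse 5). In EC-like cells they were Retnla at -10.46 (without mouse 1) to 4.45, Trem2 at -0.37 with library totals and -0.0071 (without mouse 6/7) to 0.95, and Cd9 at -0.70 with library totals, -0.00034 without the filter, -0.31 with classes from markers and -0.18 (without mouse 2) to 0.27. Trem2 was called against EC-like cells by DESeq2 (adjusted p = 0.000517), the likelihood ratio test of edgeR (0.0207), the edgeR fit without the block (0.0273) and plates 171 and 843 alone (0.0451). Timd4 was lost by DESeq2 against EC-like (0.221) and ASC-like cells (0.1002).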
